A study of Mus musculus with 8 samples.

Results

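Erbin, the ErbB receptors and neuregulin 1 were followed in the hippocampus of SCID mice given FTY720 or saline. The members are 6 genes, Erbin, Egfr, Erbb2, Erbb3, Erbb4 and Nrg1, and a probe set was taken when the platform annotation tied it to exactly 1 of them. This gave 12 of the 22626 probe sets tested, for 5 of the 12393 genes with a probe set of their own. Erbin has 3 probe sets, Egfr 5, Erbb3 2, and Erbb2 and Erbb4 have 1 each. Nrg1 had no probe set of its own and is skipped. The genes were proposed because Erbin was already known to stand among the genes of smallest p in the contrast of FTY720 with vehicle, so for all members that contrast is given as a description, without a test.

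The study used 8 male SCID mice aged 12 weeks, a strain without mature B and T lymphocytes. All of them went through contextual fear conditioning. In the FTY720 group, 4 mice received the drug orally at 1 mg/kg on 3 days, and in the vehicle group 4 mice received saline on the same schedule. Tissue collection followed the memory test by 1 hour and the final dose by 17 hours, and each mouse gave 1 Affymetrix array. FTY720 (fingolimod) is a sphingosine analogue that acts, once phosphorylated, on sphingosine-1-phosphate receptors. The labels number the FTY720 mice 1, 4, 5 and 6 and the vehicle mice 13 to 16, and per-mouse values below follow that order. No group without fear conditioning was analysed here.

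The ErbB receptors are receptor tyrosine kinases that work as pairs. Egfr binds EGF, TGF-alpha and related ligands, Erbb3 and Erbb4 bind neuregulins, Erbb2 has no ligand of its own and serves as the partner of the others, and Erbb3 has little kinase activity and signals through its partner. Erbin, first named for binding Erbb2, is a scaffold of the LAP family with leucine-rich repeats and a PDZ domain, and it also restrains Ras to Raf signalling. In the brain, Erbb3 is typical of the oligodendrocyte lineage, Erbb4 of interneurons, and neuregulin to ErbB signalling takes part in myelination and in inhibitory synapses.

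Values are on the log2 scale, on which a difference of 1 is 2-fold, and differences are FTY720 minus vehicle with the standard error (SE) of a fit over all probe sets. The array medians lay between 6.68 and 6.72, and the median level of all probe sets was 6.70. Markers of hippocampal principal neurons were present, with Neurod6 at 10.49, Wfs1 at 9.87 and Dsp at 9.11, while Prox1, a dentate granule cell factor, was at 3.29. Vehicle 15 and vehicle 16 stood apart from the other arrays, on the first (32.3% of the variance) and second (20.2%) principal component. Vehicle 15 had the highest mean of the thalamus markers, 1.24 above the mean of the 8 mice, and of the striatum markers, 1.20 above it. In vehicle 16 the 5' minus 3' difference of the Gapdh control was -1.46, the steepest of the 8. In the limma fit 0 probe sets had an adjusted p under 0.05 (lowest adjusted p = 0.483), and 1529 had an unadjusted p under 0.05 (6.76%).

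Erbin read lower in FTY720 mice on all 3 of its probe sets, by 0.31 to 0.41, and the brighter probe set of Erbb3 was lower by a similar amount. Egfr pointed both ways, with its brightest probe set lower and the other 4 higher. Erbb2 and Erbb4 differed by less than their SE. The median over the 12 probe sets was -0.07, beside 0.009 over all probe sets, and 8 of the 12 were below 0, beside 45.6% of all. Of the 12, 4 had an unadjusted p under 0.05, all with lower values, beside 2.73% of all probe sets in that direction, and because the members were chosen on this contrast nothing is read from these counts.

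Erbin is the member with the widest separation between the groups. The promoter is shown because the 3 probe sets of Erbin share a direction. RefSeq places the 250 bases before the start of the gene on the minus strand of chromosome 13, at chr13:103920587-103920836 in GRCm38.p6. Capitals mark GC boxes, the letters GGGCGG on either strand, the recognition sequence of Sp factors.
Erbin promoter: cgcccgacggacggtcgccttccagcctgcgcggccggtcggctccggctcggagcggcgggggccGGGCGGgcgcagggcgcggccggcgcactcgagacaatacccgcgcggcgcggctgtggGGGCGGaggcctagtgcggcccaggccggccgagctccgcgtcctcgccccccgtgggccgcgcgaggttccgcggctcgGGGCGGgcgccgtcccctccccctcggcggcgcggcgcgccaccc
G and C made up 84.0% of these bases and 49 were CpG steps, against medians of 52.4% and 6 over 32851 promoter windows of the same length. The window held 3 GC boxes and no CCAAT or TATAAA on either strand. At least 1 GC box was found in 32.7% of all windows, CCAAT in 33.8% and TATAAA in 12.4%. The windows of Egfr, Erbb2 and Erbb4 were less rich in G and C, at 60.8%, 66.0% and 54.0%, with 1, 0 and 0 GC boxes. These are descriptions of letters and do not show which factors bind.

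On the brightest Erbin probe set, 1428011_a_at, the FTY720 mice read 9.27, 9.25, 9.39 and 9.24 and the vehicle mice 9.52, 9.57, 9.85 and 9.83. Every FTY720 mouse was below every vehicle mouse, and vehicle 15 and 16 were the highest of the 8. The means were 9.29 ± 0.07 (SD, n = 4) and 9.69 ± 0.17 (n = 4), a difference of -0.41 (SE 0.08), or 0.755 of the vehicle level on the linear scale. The FTY720 group does not overlap the vehicle group on the lower side in 1.74% of all probe sets. Without vehicle 15 and 16 this difference was -0.26 (SE 0.06). Leaving out any single mouse gave -0.46 to -0.35.

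The other probe sets of Erbin were made from 1 shared source record, so they are not independent readings of the transcript. On 1439079_a_at the FTY720 mice read 7.09, 7.22, 7.09 and 6.91 and the vehicle mice 7.13, 7.48, 7.52 and 7.42. The groups overlapped through FTY720 4, which lay above vehicle 13. The difference was -0.31 (SE 0.09), with means of 7.08 ± 0.13 (SD, n = 4) and 7.39 ± 0.18 (n = 4).

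On 1439080_at the FTY720 mice read 5.93, 5.91, 5.70 and 5.57 and the vehicle mice 5.93, 6.08, 6.22 and 6.23. FTY720 1 and vehicle 13 had the same value, and the others kept to their side. The difference was -0.34 (SE 0.10), with means of 5.78 ± 0.17 (SD, n = 4) and 6.12 ± 0.14 (n = 4). Vehicle 13 was the lowest vehicle mouse on all 3 Erbin probe sets. Without vehicle 15 and 16 the differences were -0.23 (SE 0.11) on both of these probe sets.

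The distance between Erbin probe sets within a mouse was similar in both groups. Between 1428011_a_at and 1439079_a_at it was 2.21 ± 0.14 (SD, n = 4) in FTY720 and 2.31 ± 0.14 (n = 4) in vehicle mice. Between the pair from 1 source record it was 1.30 ± 0.10 and 1.27 ± 0.09. Among the other 1897 genes with 3 or more probe sets, 12.7% had all of them below 0, which is the pattern of Erbin. All were on the same side of 0 in 32.4%. Because Erbin was chosen on this contrast, nothing is read from these shares.

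**Figure D1:**
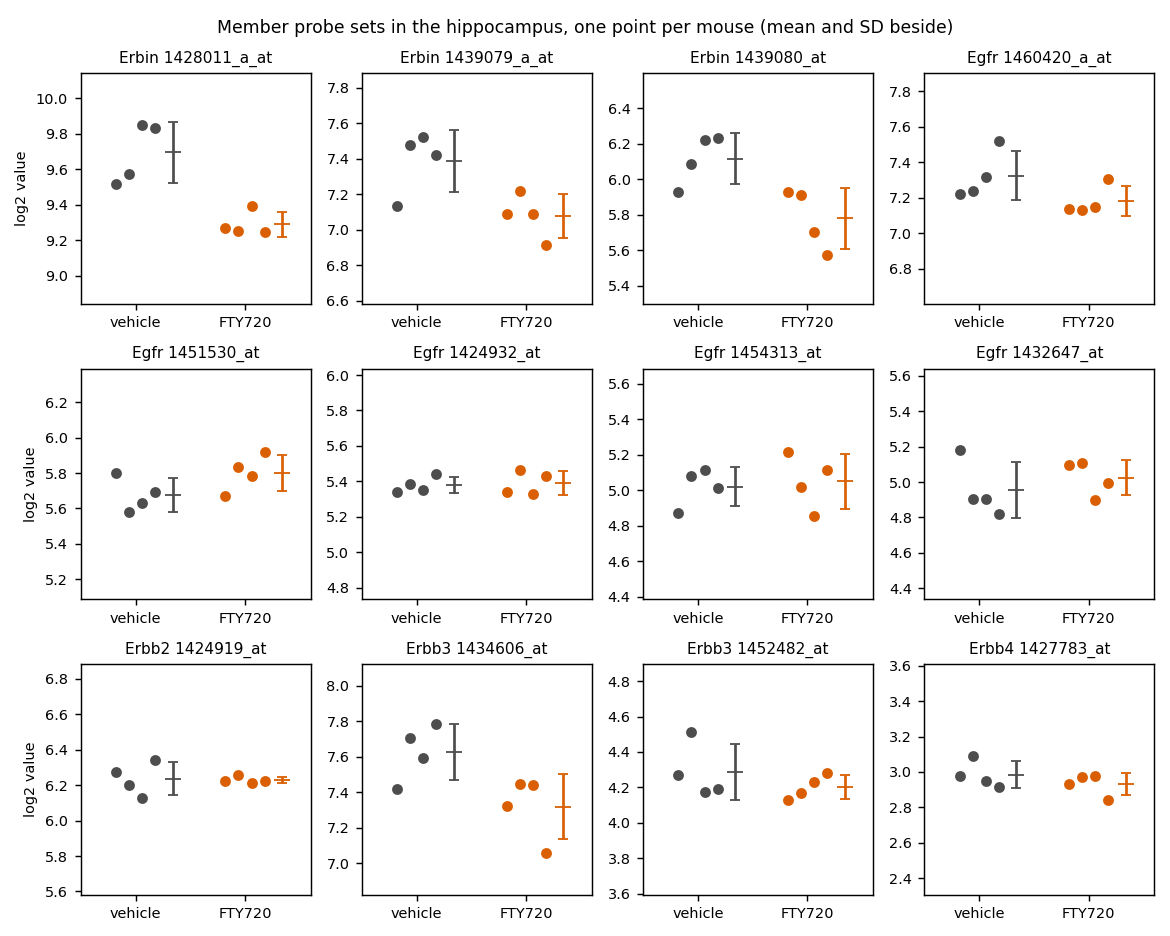
Log2 value of each of the 12 member probe sets by group, with 1 point per mouse and the mean ± SD beside the points (n = 4 per group, each panel spanning 1.3 log2 units). The groups are separate on Erbin 1428011_a_at, from 9.24 to 9.39 in FTY720 and from 9.52 to 9.85 in vehicle mice, and overlap or touch on the other 11.

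Erbb3, the neuregulin receptor of the oligodendrocyte lineage, had a bright and a dim probe set. On the brighter, 1434606_at, the FTY720 mice read 7.32, 7.45, 7.44 and 7.06 and the vehicle mice 7.42, 7.70, 7.59 and 7.79. FTY720 6 was the lowest mouse, and vehicle 13 lay below FTY720 4 and 5, so the groups overlapped. The means were 7.32 ± 0.18 (SD, n = 4) and 7.63 ± 0.16 (n = 4), a difference of -0.31 (SE 0.10), or 0.808 on the linear scale. It was -0.24 (SE 0.13) without vehicle 15 and 16.

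The other Erbb3 probe set, 1452482_at, had a mean level of 4.24, below the median of all probe sets. The FTY720 mice read 4.13, 4.17, 4.23 and 4.28 and the vehicle mice 4.27, 4.51, 4.17 and 4.19. Only vehicle 14 lay outside the range of the rest, and the difference was -0.08 (SE 0.08). It was -0.01 without vehicle 14 and -0.19 (SE 0.08) without vehicle 15 and 16. The lower reading of Erbb3 therefore rests on its brighter probe set.

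Markers of mature oligodendrocytes, the cells in which Erbb3 is typical, moved with Erbin and Erbb3. All 12 measured markers of 16 listed were lower in FTY720 mice, with a median of -0.33 (Mog -0.54, Ugt8a -0.52, Sox10 -0.15), and all 12 had an unadjusted p under 0.05 in the fit, where 2.7% of all genes were lower at that p. None passed adjustment over all probe sets. The mean level of the 12 ranged from 9.49 to 9.74 in FTY720 mice and from 9.74 to 10.14 in vehicle mice. These means were above the median level of all probe sets. Relative to the mean of the 8 mice, vehicle 16 and 14 had the highest marker means, 0.34 and 0.31, and FTY720 6 the lowest, -0.31. Vehicle 13 stood at -0.06, level with FTY720 5 at -0.06. In bulk tissue, fewer cells of a type and less RNA per cell cannot be told apart.

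With that marker mean as a covariate the Erbb3 difference on 1434606_at was 0.06 (SE 0.10). Those of Erbin were -0.26 (SE 0.14) on 1428011_a_at, -0.06 (SE 0.13) on 1439079_a_at and -0.14 (SE 0.15) on 1439080_at. The covariate itself differs between the groups and so takes up part of any treatment difference. The Gapdh 5' minus 3' difference also moved with the groups, from -1.08 to -0.80 in FTY720 and from -1.46 to -1.07 in vehicle mice. That of the actin control ran from -2.44 to -2.19 in FTY720 and from -2.74 to -2.44 in vehicle mice. With the Gapdh difference as a covariate the Erbin differences were -0.32 (SE 0.11), -0.29 (SE 0.13) and -0.26 (SE 0.13) in the same order. The Erbb3 difference on 1434606_at was -0.17 (SE 0.13) in that fit. The part of cell content or RNA integrity in these differences was not tested beyond these values.

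**Figure D2:**
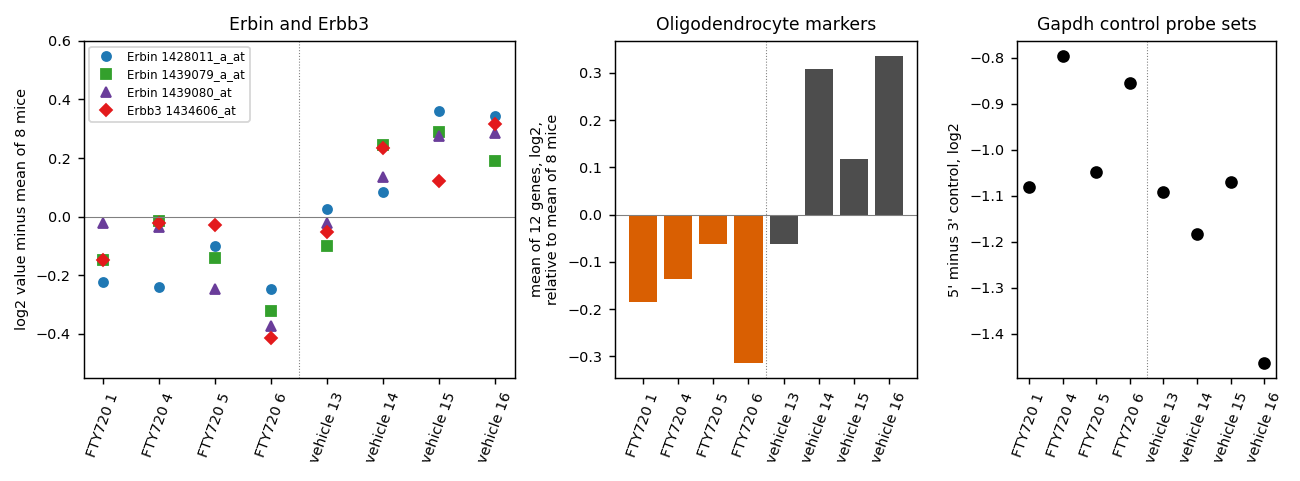
Left, log2 values of the 3 Erbin probe sets and Erbb3 1434606_at relative to the mean of the 8 mice. Middle, mean of the 12 oligodendrocyte markers on the same relative scale. Right, 5' minus 3' difference of the Gapdh control. The x axes give the 8 mice, FTY720 before vehicle, and vehicle 13 sits near the FTY720 mice in the middle panel, with a marker mean of -0.06, and above all of them on Erbin 1428011_a_at.

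No gene of any marker list passed adjustment over all probe sets (limma). Thalamus markers, from a region next to the hippocampus, also moved with the groups, with a median difference of -0.81 over 7 genes. Of these, 6 of 7 were lower at an unadjusted p under 0.05 (85.7%, beside 2.7% of all genes). Their list means ran from -0.49 to -0.29 in FTY720 and from -0.18 to 1.24 in vehicle mice, with vehicle 15 the highest, so the groups did not overlap. The difference of these means was -0.77 with all mice, -0.48 without vehicle 15 and -0.62 without vehicle 15 and 16. Striatum markers had a median of -0.41 over 7 genes, 0 of them at that p, with means from -0.32 to -0.20 in FTY720 and from -0.28 to 1.20 in vehicle mice. The difference of the striatum means was -0.51 with all mice, -0.19 without vehicle 15 and 0.006 without vehicle 15 and 16. Choroid plexus markers had a median of -0.61 over 7 genes, with means from -1.35 to 0.96 in FTY720 and from -1.03 to 1.51 in vehicle mice. The difference of the choroid plexus means was -0.50 with all mice, -0.08 without vehicle 15 and -0.51 without vehicle 15 and 16. Interneuron markers had a median of -0.001 over 11 genes, with means from 0.007 to 0.04 in FTY720 and from -0.10 to 0.18 in vehicle mice. Of these, 3 were higher at an unadjusted p under 0.05 (27.3%, beside 6.26% of all genes). They were Lhx6 at 0.23 (SE 0.06), Sst at 0.23 (SE 0.08) and Reln at 0.33 (SE 0.14). Of the 11, 5 were above 0 and 6 below, the latter including Calb2 at -0.26 (SE 0.40) and Npy at -0.23 (SE 0.12). Oligodendrocyte precursor markers had a median of -0.08 over 7 genes, with means from -0.10 to 0.06 in FTY720 and from -0.06 to 0.08 in vehicle mice. Of the precursor markers, 1 was higher at an unadjusted p under 0.05 (14.3%). Astrocyte markers had a median of -0.02 over 11 genes, with 1 higher and 1 lower at that p (18.2%). Microglia markers had a median of -0.03 over 8 genes, 0 of them at that p. Endothelial markers had a median of -0.06 over 7 genes, with 1 higher and 1 lower at that p (28.6%). Hippocampal principal neuron markers had a median of 0.10 over 6 genes, with 1 higher at that p (16.7%). The means of this list ran from -0.07 to 0.25 in FTY720 and from -0.28 to 0.22 in vehicle mice. They differed by 0.10 with all mice, 0.02 without vehicle 15 and -0.09 without vehicle 15 and 16. The values of these list means without vehicle 15, or without vehicle 15 and 16, were chosen after seeing the data. The part of these other cells and regions in the member differences was not tested.

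Egfr, the receptor of EGF and TGF-alpha, was read by 5 probe sets from 3 source records. On the brightest, 1460420_a_at, the FTY720 mice read 7.14, 7.13, 7.15 and 7.31 and the vehicle mice 7.22, 7.24, 7.31 and 7.52. FTY720 6 lay within the vehicle range and the other 3 FTY720 mice below it. The difference was -0.14 (SE 0.08), and it was -0.08 without vehicle 16 and -0.05 (SE 0.07) without vehicle 15 and 16.

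The next Egfr probe set pointed the other way. On 1451530_at the FTY720 mice read 5.67, 5.83, 5.78 and 5.92 and the vehicle mice 5.80, 5.58, 5.63 and 5.69, which overlap through FTY720 1 and vehicle 13. The difference was 0.12 (SE 0.07). The distance between these 2 probe sets within a mouse was 1.38 ± 0.07 (SD, n = 4) in FTY720 and 1.65 ± 0.17 (n = 4) in vehicle mice, the widest gap between groups among the member pairs.

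The remaining Egfr probe sets lay close to 0. The difference was 0.01 (SE 0.05) on 1424932_at, which shares its source record with 1451530_at. It was 0.03 (SE 0.09) on 1454313_at and 0.07 (SE 0.08) on 1432647_at, which share another record. All 4 were below the median level of the array, and their values in the 8 mice ran from 4.82 to 5.92. With all 5 probe sets averaged into 1 value per mouse, Egfr differed by 0.02 (SE 0.05). These data therefore give Egfr no single direction.

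Erbb2, the receptor for which Erbin was named, read 6.22, 6.25, 6.21 and 6.22 in FTY720 mice and 6.28, 6.20, 6.12 and 6.34 in vehicle mice on 1424919_at. The FTY720 mice lay inside the vehicle range, with an SD of 0.02 against 0.09. The means were 6.23 and 6.24, a difference of -0.007 (SE 0.06), and its sign turned without vehicle 13 (0.006) or vehicle 16 (0.03).

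Erbb4, the neuregulin receptor of interneurons, read 2.93, 2.97, 2.98 and 2.84 in FTY720 mice and 2.98, 3.09, 2.95 and 2.92 in vehicle mice on 1427783_at. Of all probe sets, 1.59% had a level this low or lower. The groups overlapped and the difference was -0.05 (SE 0.06). It was -0.02 without vehicle 14, -0.03 without FTY720 6 and -0.10 (SE 0.07) without vehicle 15 and 16. Array summaries can understate differences at such low levels, and whether they did so here was not tested.

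**Figure D3:**
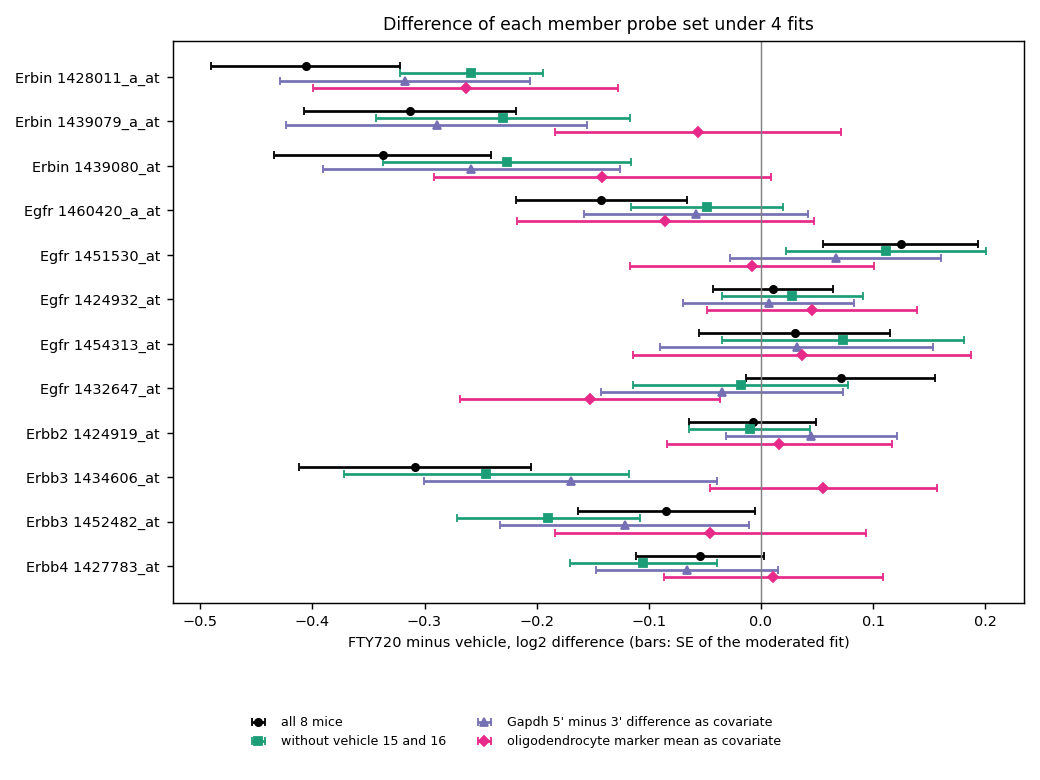
FTY720 minus vehicle difference of each member probe set on the log2 scale (x axis, bars are the SE) in 4 fits, marked by symbol. The 3 Erbin probe sets are below 0 in all 4. With the oligodendrocyte marker mean as a covariate, Erbin 1439079_a_at (-0.06, SE 0.13) and 1439080_at (-0.14, SE 0.15) lie within their SE of 0. Erbb3 1434606_at goes from -0.31 with all 8 mice to 0.06 in that fit.

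The members did not share one pattern from mouse to mouse. Over deviations from the group means in the 8 mice, which leave the treatment difference out, the 2 Erbin probe sets from 1 record correlated with each other at 0.81 and with Erbb3 1434606_at at 0.79 and 0.70. The brightest Erbin probe set correlated less with them, at 0.53 and 0.51, and with Erbb3 1434606_at at 0.47. The dim Erbb3 probe set, 1452482_at, went the other way. It correlated at -0.56 with Erbin 1428011_a_at, -0.11 with 1439079_a_at and -0.54 with 1439080_at. With Erbb3 1434606_at its correlation was -0.11. Between the brightest probe sets of Erbb3 and of Egfr the value was 0.02, between Egfr and Erbb4 -0.77 and between Erbin and Erbb2 -0.14. It was 0.54 for Erbin and Egfr, 0.48 for Erbb3 and Erbb4, 0.43 for Egfr and Erbb2 and 0.185 for Erbb2 and Erbb3. Erbb4 gave -0.35 with Erbin and -0.23 with Erbb2. Its probe set is very dim, with 1.59% of all probe sets at or below its level. All values come from the same 8 arrays and are a description.

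The genes whose deviations were most like those of a member were found among 6974 other genes with a level above the median, 3 per member by Pearson correlation over the 8 mice. With so many candidates and 8 mice, values near 1 are met for any gene, so they are a description. For Erbin these were Higd1a (0.98), Rnft1 (0.97) and Cox6b1 (0.95), and for Erbb3 they were Nras (0.98), Hpf1 (0.97) and Bud31 (0.97). For Egfr they were Ergic1 (0.98), Ap5s1 (0.95) and Cers5 (0.95), for Erbb2 Hps4, Ptprd and Ccn2 (each 0.99) and for Erbb4 Selenos (0.98), Fbl (0.97) and Ncbp1 (0.97). Of the 3 nearest to Erbin, none had a difference of its size, with -0.09 (SE 0.07), -0.10 (SE 0.07) and -0.02 (SE 0.05).

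The rest of the pathway was read from 5 lists, which hold ligands, the proteases that free them, adaptors and effectors, negative regulators, and the relatives and partners of Erbin. Of 99 genes listed, 80 were measured, each by its brightest probe set. None had an adjusted p under 0.05 (limma), and 3 had an unadjusted p under 0.05 (3.75%, beside 6.26% of all genes), 1 higher and 2 lower. Their median difference was -0.0006, beside 0.007 over all genes.

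Among the 8 ligands measured of 10, 4 were above and 4 below 0, with a median of 0.03. Tgfa, a ligand of Egfr, read 8.29, 8.31, 8.31 and 8.03 in FTY720 mice and 8.52, 8.42, 8.74 and 8.37 in vehicle mice on its brightest probe set. The groups did not overlap, as in 1.78% of all genes on the lower side, and the difference was -0.28 (SE 0.09, limma adjusted p = 0.690). Its other 2 probe sets gave 0.02 (SE 0.06) and 0.09 (SE 0.06), and the mean of the 3 gave -0.06 (SE 0.05). Hbegf, a heparin-binding ligand of Egfr and Erbb4, was named here after its values were seen. It was higher in every FTY720 mouse than in any vehicle mouse, as were 2.72% of all genes. The groups nearly touched, at 7.12635 in FTY720 5 and 7.12592 in vehicle 16. The difference of the Hbegf means was 0.08 (SE 0.05, limma adjusted p = 0.794). The neuregulins Nrg3 and Nrg4 stood at -0.04 (SE 0.07) and -0.08 (SE 0.12).

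Of the sheddases and secretases, which cut ligand precursors and neuregulins, 11 of 13 were measured and 9 were above 0, with a median of 0.02 and 0 at an unadjusted p under 0.05. The lowest p belonged to Psen2, a catalytic subunit of gamma-secretase, at 0.15 (SE 0.07, limma adjusted p = 0.732), and Adam19, a metalloprotease, at 0.13 (SE 0.06, limma adjusted p = 0.732). Psen2 was 0.20 (SE 0.06) without vehicle 13, 0.10 without vehicle 16 and 0.06 (SE 0.07) without vehicle 15 and 16. With the oligodendrocyte marker mean as a covariate it was 0.03 (SE 0.11). Its other probe set gave -0.04 (SE 0.05).

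Among adaptors and effectors, 29 of 37 were measured, 10 above and 19 below 0, with a median of -0.03. Gab1, the docking protein that links Egfr to PI3 kinase, read 8.49, 8.39, 8.49 and 8.16 in FTY720 mice and 8.49, 8.72, 8.67 and 8.68 in vehicle mice. Vehicle 13 lay among the FTY720 mice, as it did for Erbb3. The difference was -0.26 (SE 0.08, limma adjusted p = 0.690), and the other 2 probe sets gave -0.18 (SE 0.08) and -0.13 (SE 0.09). With the oligodendrocyte marker mean as a covariate it was -0.02 (SE 0.11), and -0.15 (SE 0.11) when the Gapdh difference was the covariate.

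Negative regulators and trafficking genes had 11 of 18 measured members above 0, with a median of 0.05. Eps15, an endocytic adaptor phosphorylated by Egfr, read 11.74, 11.84, 11.77 and 11.87 in FTY720 mice and 11.71, 11.72, 11.58 and 11.68 in vehicle mice. The groups did not overlap, as in 2.72% of all genes on the higher side, and the difference was 0.13 (SE 0.06, limma adjusted p = 0.708). The other probe set of Eps15 gave 0.27 (SE 0.09), with groups that overlapped. The unadjusted p of the brighter probe set, 0.0371, was between 0.058 and 0.0955 without FTY720 4, FTY720 6, vehicle 15 or vehicle 16 (limma). It was 0.183 without vehicle 15 and 16, 0.197 with the Gapdh covariate and 0.283 with the oligodendrocyte covariate (limma). Of 20 alternatives, 12 kept it under 0.05.

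The relatives and partners of Erbin showed the smallest range of the 5 lists, from -0.09 to 0.06 over 14 of 18 genes, 5 above and 9 below 0 with a median of -0.02 and 0 at an unadjusted p under 0.05. The LAP family member Lrrc1 stood at -0.09 (SE 0.07, limma adjusted p = 0.814) and Smad2, a TGF-beta effector, at -0.05 (SE 0.05, limma adjusted p = 0.870). Without vehicle 15 Lrrc1 was -0.03 (SE 0.05), and Smad2 was -0.03 without FTY720 1 or without vehicle 16. Lrrc7, the LAP protein of the postsynaptic density, had no probe set of its own.

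**Figure D4:**
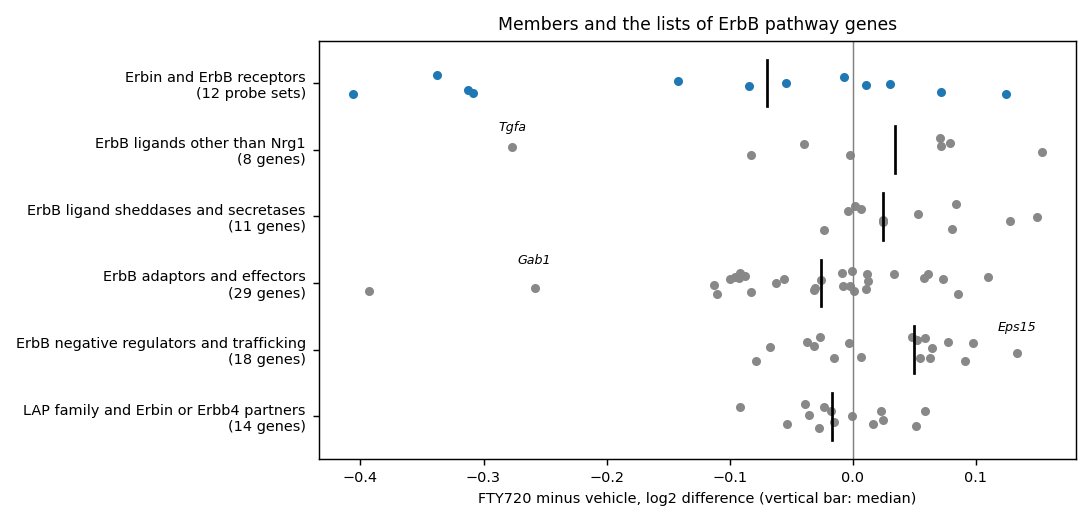
FTY720 minus vehicle difference (log2, x axis) of the 12 member probe sets and of the genes of the 5 lists, 1 point each with the median as a bar and vertical scatter only for legibility. Named are the 3 list genes with an unadjusted p under 0.05, and the medians of the lists lie between -0.03 and 0.05.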

How the data were processed

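The deposited values are log2 intensities summarised per probe set, 1 array for each of 8 mice, with the scale read from their range. The submitters' processing notes list Affymetrix Expression Console, MAS5 and RMA without roles. Which of them made the values is not stated there. Such summaries can understate differences of dim probe sets. Of 22690 probe sets, 64 controls were left out. Of the other 22626, 20380 had 1 gene symbol, 691 several and 1555 none. Values were used as deposited and fitted in R 4.3.3 by limma 3.58.1 (its lmFit and eBayes functions, with treatment as the only term), and p-values were adjusted over all probe sets by Benjamini-Hochberg. A list gene is shown by its brightest own probe set. No pair of arrays was identical and no batch was given. The number of arrays limits the precision.

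Members, lists, tests and alternatives were chosen with earlier results of these data known. Named are all members, list genes with an unadjusted p under 0.05 (at most 8 per list, otherwise the 2 of smallest p), and for each member the 3 most correlated genes. Marker genes and Nrg3, Nrg4, Hbegf and Lrrc7 are examples. By Entrez ID, 5 of 5 members kept their symbol in RefSeq. Promoters were found for 4 members. The fit was checked on simulated data. Alternatives covered scaling, filters, probe set choice, variance models, covariates and leaving out mice.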

Additional observations from a re-analysis of the deposited data

Results flagged for a closer look

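In 4 of 72 groups of 4 mice checked, 1 mouse lay far from the other 3, with a gap to its nearest neighbour above the critical value of Dixon's ratio of gap to range. Chance flags about 1 in 20 groups. On Erbin 1428011_a_at, FTY720 5 (9.39) lay above the other FTY720 mice (9.24 to 9.27), with a gap of 0.85 of the range. On Egfr 1460420_a_at, FTY720 6 (7.31) lay above the others (7.13 to 7.15), with a gap of 0.898 of the range. On Tgfa 1421943_at, FTY720 6 (8.03) lay below the others (8.29 to 8.31), with a gap of 0.933 of the range. The mean of the interneuron markers was 0.18 in vehicle 15 and between -0.10 and -0.08 in the other vehicle mice, with a gap of 0.906 of the range.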

How the results depend on the processing

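Of 20 alternatives, none gave a probe set an adjusted p under 0.05. The 1529 probe sets with an unadjusted p under 0.05 were 969 among those above the median level, 995 without probe sets of suffix _s_at, _x_at or _a_at, 823 with the brightest and 835 with the mean probe set per gene, for which fewer rows were tested. They were 948 with the Gapdh covariate and 626 with the oligodendrocyte covariate, where the cause was not tested, and 1266 to 1838 with a mouse left out. The pathway count of 3 was 5 above the median level and 2 to 4 with a mouse left out. Of 215 member values under alternatives, 207 moved by less than 1 SD between mice. The other 8 were Egfr 1460420_a_at in the mean of probe sets (0.02), Erbin 1428011_a_at without vehicle 15 and 16 (-0.26), and 6 under the oligodendrocyte covariate, among them Egfr 1451530_at (-0.008) and 1432647_at (-0.15). With that covariate Smad2 stood at 0.049. Quantile normalization and centring on brighter probe sets changed no sign of a member. No paired analysis was possible because the groups share no replicate number.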
